A study of Homo sapiens with 8 samples.

Results

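Genes that prepare fatty acids for mitochondrial oxidation were measured in KYSE150 cells, an established human esophageal squamous cell carcinoma line, after knockdown of the BOLA3-L isoform. The 10 genes were chosen by name, with earlier results of these data known. They are acyl-CoA ligases (ACSL1, ACSL3), carnitine transferases (CPT1A, CPT2) and the long-chain acyl-CoA dehydrogenase ACADVL. The others are enzymes for unsaturated chains (DECR1, ECI1), electron transfer flavoprotein subunits (ETFA, ETFB) and the receptor PPARA. All 10 were found among the 15852 genes of the deposited count table, and all 10 passed the filter on low counts that left 11841 genes for testing. RNA was sequenced from 4 KYSE150 libraries whose genotype label is ShBOLA3-L and 4 KYSE150 libraries labelled Control, with no treatment in either group. BOLA3 takes part in the transfer of iron-sulfur clusters to mitochondrial proteins, and the comparison asks which genes respond when its L isoform is reduced. The sources used here give neither the hairpin and control construct nor whether the libraries of a group came from separate cultures, so p-values measure the spread between libraries, which may be technical.

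A long-chain fatty acid is first joined to coenzyme A by an acyl-CoA ligase. CPT1A at the outer mitochondrial membrane then exchanges the coenzyme A for carnitine, the acylcarnitine crosses the inner membrane, and CPT2 restores the acyl-CoA inside. Acyl-CoA dehydrogenases such as ACADVL start each round of beta-oxidation and pass their electrons to electron transfer flavoprotein, a dimer of ETFA and ETFB, which hands them to the iron-sulfur flavoprotein ETFDH. PPARA is a ligand-activated nuclear receptor that pairs with retinoid X receptors and is known for switching on fatty acid oxidation genes in liver.

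After knockdown 6 of the 10 genes rose (ACSL1, CPT1A, CPT2, DECR1, ECI1 and ETFA), 3 fell (ACSL3, ACADVL and PPARA) and ETFB did not pass the test. With all 8 libraries in edgeR the largest rise was that of ECI1, to 128% of control, and the largest fall that of PPARA, to 68.9% of control. The rise of ACSL1 was the larger when knockdown replicate 2, 3 or 4 was left out. Its log2 changes were then 0.340, 0.332 and 0.333, against 0.335, 0.322 and 0.324 for ECI1. Calls are an adjusted p under 0.05 in edgeR's quasi-likelihood F-test with Benjamini-Hochberg adjustment over all tested genes. By the same rule 15.0% of all tested genes rose, 15.6% fell and 30.7% were called in either direction. Since earlier results of these data were known when the 10 genes were chosen, this contrast is no test of them. Among the 6771 tested genes with a mean of at least 1000 counts, which include every member but PPARA, 16.2% rose, 18.8% fell and 35.0% were called. In 7 of the 10 genes no knockdown library lay within the control range, and 30.2% of all tested genes were separated in this way. The median log2 change was 0.21 over the 10 genes and 0.00 over all tested genes. The 6 rises and 3 falls were called under each of the 17 alternatives run, which included each library left out in turn. Without BOLA3-L knockdown replicate 1, which is described next, the same 6 rose and 3 fell, while over all genes tested 21.2% rose, 21.5% fell and 42.7% were called. The RNA is from whole cultures, in which fewer cells of a type and less RNA per cell cannot be told apart.

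Total counts ranged from 31178036 to 35147860 per library. BOLA3 itself stood at 6.06, 6.64, 6.33 and 7.29 CPM (counts scaled to library size, with TMM factors) in knockdown replicates 1 to 4, against 21.6, 19.1, 20.5 and 21.8 CPM in control replicates 1 to 4, a fall summed over all its transcripts (log2 change -1.66, SE 0.0821, edgeR adjusted p 6.9e-11). BOLA3-L knockdown replicate 1 stood apart on the second principal component (20.1, against -10.1 to 1.79 in the other 7 libraries). In that library genes with transcripts of 59.0% to 75.8% GC lay lower than in the other 3 knockdown libraries (median log2 deviation -0.24) and genes of 31.6% to 42.9% GC higher (0.15). These medians ran from -0.07 to 0.10 across the other 3 knockdown libraries and from -0.02 to 0.02 across the controls. Each library was set against the other 3 of its group, so replicate 1 enters the values of the other knockdown libraries. Of 8 squamous epithelial markers 7 reached 1 CPM in some library, with a summed level of 2785.0 to 3043.0 CPM in knockdown and 4323.4 to 4331.8 CPM in control libraries, and SOX2 did not reach 1 CPM. Of the 7, 6 fell and 1 rose, where 15.6% of all tested genes fell and 15.0% rose. Of 25 markers of fibroblasts, leukocytes, endothelium, adipocytes and hepatocytes, 4 reached 1 CPM (COL1A1, CD68, CDH5 and SERPINA1), while PTPRC, PECAM1, DCN and ALB stayed below it. The summed fibroblast markers were at 4.25 to 7.0 CPM in knockdown and 9.85 to 14.7 CPM in control libraries, and hepatocyte markers at 1.18 to 1.67 CPM in knockdown and 5.08 to 6.40 CPM in control libraries. Endothelial markers were at 1.87 to 2.44 CPM in knockdown and 0.880 to 1.82 CPM in control libraries, and leukocyte markers at 73.9 to 79.5 CPM in knockdown and 77.6 to 84.6 CPM in control libraries. The 2 adipocyte markers found did not exceed 0.382 CPM. The part of these markers in the results was not tested.

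**Figure D1:**
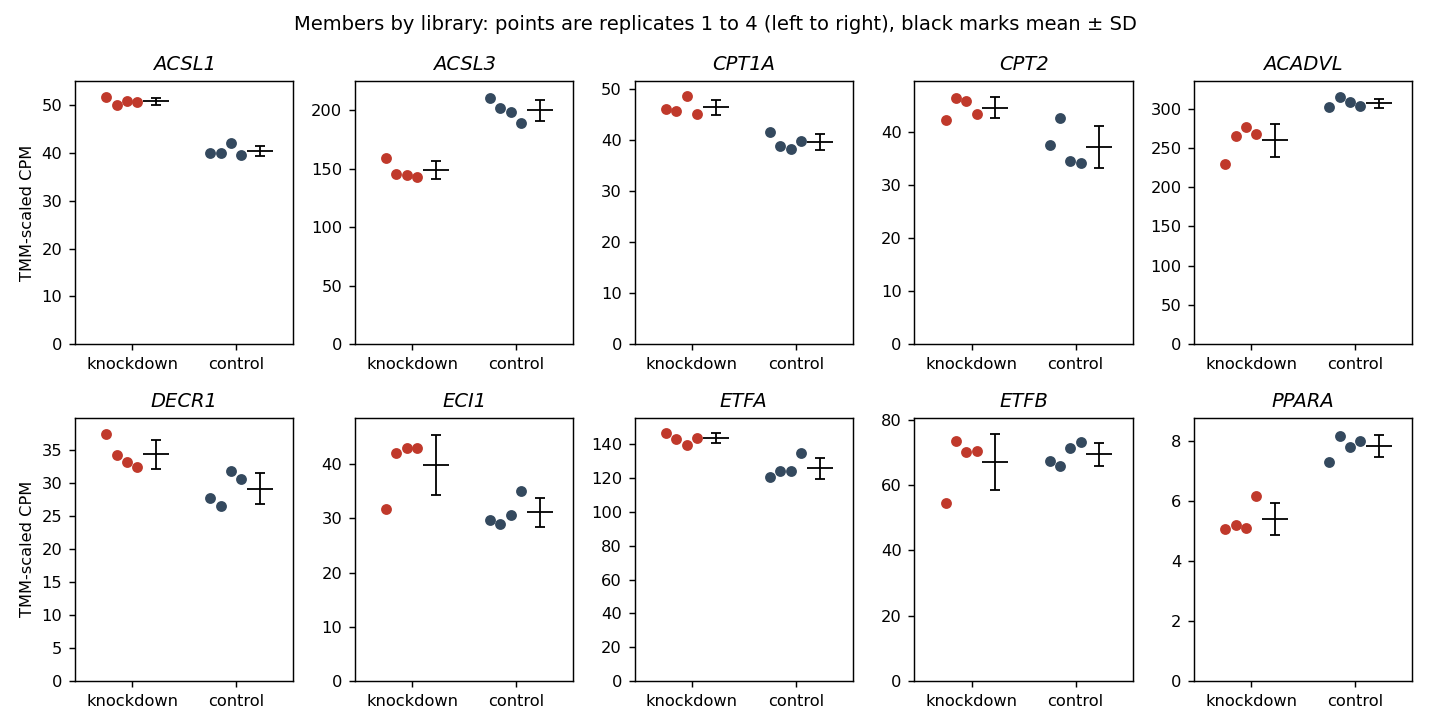
Level of each of the 10 genes in every library, in TMM-scaled CPM on axes that start at 0. Points are replicates 1 to 4 of BOLA3-L knockdown (left) and control (right), and black marks are the mean ± SD of 4. In ACSL1, ACSL3, CPT1A, ACADVL, DECR1, ETFA and PPARA the groups do not overlap, and in ECI1 and ETFB knockdown replicate 1 lies well below the other 3.

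The acyl-CoA ligases moved in opposite directions. ACSL1, the main long-chain ligase of liver, heart and fat tissue, had 51.8, 50.0, 50.8 and 50.7 CPM in knockdown replicates 1 to 4, against 39.9, 39.9, 42.1 and 39.6 CPM in control replicates 1 to 4. Every knockdown library lay above every control library, and the knockdown libraries differed among themselves by little (coefficient of variation 1.44%, against 2.78% in controls). ACSL1 rose to 126% of control (log2 change 0.33, SE 0.0469, edgeR adjusted p 3.3e-05). ACSL3, a ligase of the endoplasmic reticulum and lipid droplets that serves lipid synthesis, had 159.7, 146, 145 and 143 CPM in knockdown replicates 1 to 4, against 211, 202, 199 and 189.6 CPM in control replicates 1 to 4. All knockdown libraries lay below all controls, and ACSL3 fell to 74.2% of control (log2 change -0.43, SE 0.0434, edgeR adjusted p 6.0e-07), the smallest p of the 10 genes. An exact permutation test of each ligase alone (two-sided) gave p = 0.0286, the smallest that 4 against 4 allow.

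The ratio of the ligases was lower in every knockdown library than in any control. The log2 ratio of ACSL3 to ACSL1 counts was 1.62, 1.55, 1.51 and 1.50 in knockdown replicates 1 to 4, against 2.40, 2.34, 2.24 and 2.26 in control replicates 1 to 4. The difference of -0.76 was more than 10 times the SD within the knockdown group (0.0567) and within the control group (0.0746), and the groups were far apart (exact permutation p = 0.0286, 0.0571 after Benjamini-Hochberg adjustment over the 4 pairs compared). Per gene length the FPKM of ACSL3 was 2.45 ± 0.0974 times that of ACSL1 in knockdown libraries and 4.16 ± 0.217 times in controls (SD, n = 4 each). A ratio within a library does not depend on how libraries are scaled.

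ACSL1 (identifier 2180) lies on chromosome 4 from 184755595 to 184826594 on the minus strand and ACSL3 (identifier 2181) on chromosome 2 from 222861036 to 222944639 on the plus strand of GRCh38, the assembly that the submitters' processing notes call hg38. None of the 75-base windows of their longest coding transcripts occurs in transcripts of another gene. RefSeq's promoter windows on GRCh38.p14, each of 300 bases around an annotated start, were examined for 9 of the 10 genes. DECR1 was left out of this step. The outermost ACSL1 window, the ACSL3 window and the downstream window of PPARA are shown because these genes carry the opposite ligase changes and the largest fall. Capitals mark the GC box GGGCGG on either strand in the ligases and the site of nuclear respiratory factor 1 (GCGC, any base, then TGCGC) on either strand in PPARA.
ACSL1, chr4:184825919-184826218, minus strand: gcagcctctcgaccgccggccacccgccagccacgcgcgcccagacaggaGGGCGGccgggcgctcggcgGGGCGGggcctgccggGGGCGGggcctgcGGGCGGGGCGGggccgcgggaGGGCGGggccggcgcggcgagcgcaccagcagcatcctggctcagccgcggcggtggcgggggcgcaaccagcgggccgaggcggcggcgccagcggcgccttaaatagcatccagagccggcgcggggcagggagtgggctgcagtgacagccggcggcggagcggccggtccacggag
ACSL3, chr2:222860786-222861085, plus strand: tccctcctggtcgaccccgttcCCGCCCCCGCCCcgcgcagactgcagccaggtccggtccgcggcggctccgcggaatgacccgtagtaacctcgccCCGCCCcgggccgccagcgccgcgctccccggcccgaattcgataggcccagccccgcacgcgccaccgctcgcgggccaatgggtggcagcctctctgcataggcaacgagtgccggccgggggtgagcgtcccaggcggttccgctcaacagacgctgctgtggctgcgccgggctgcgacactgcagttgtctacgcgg
PPARA, chr22:46150538-46150837, plus strand: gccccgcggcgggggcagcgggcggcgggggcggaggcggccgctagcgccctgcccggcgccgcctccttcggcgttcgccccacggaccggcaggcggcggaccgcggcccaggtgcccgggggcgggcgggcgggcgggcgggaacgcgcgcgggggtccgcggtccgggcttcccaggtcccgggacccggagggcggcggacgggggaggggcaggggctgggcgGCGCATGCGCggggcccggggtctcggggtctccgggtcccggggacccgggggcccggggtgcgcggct
The ACSL1 window holds 6 GC boxes, some of them overlapping, and the ACSL3 window 3, and 45.0% of the 35116 RefSeq promoter windows hold at least 1. The nuclear respiratory factor 1 site stands once in the PPARA window, where its first base is also the last of 1 of the 9 GC boxes left in lower case, and once in a window of ETFB, and 5.78% of all windows hold it. The PPAR half-site AGGTCA is in 0 of the 16 windows of the 9 genes on either strand, against 13.8% of all windows, and its direct repeat with 1 base between is likewise in none of the 16, against 0.0228% of all windows. These matches describe letters in short windows and were not tested as binding sites.

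Both carnitine transferases rose. CPT1A, the outer membrane enzyme that malonyl-CoA inhibits, had 46.0, 45.7, 48.5 and 45.1 CPM in knockdown replicates 1 to 4, against 41.6, 38.7, 38.1 and 39.8 CPM in control replicates 1 to 4. The groups did not overlap, and CPT1A rose to 117% of control (log2 change 0.23, SE 0.0504, edgeR adjusted p 0.00214; exact permutation p = 0.0286). CPT2, the inner membrane enzyme, had 42.3, 46.5, 45.9 and 43.5 CPM in knockdown replicates 1 to 4, against 37.5, 42.7, 34.6 and 34.2 CPM in control replicates 1 to 4. Control replicate 2 lay just above knockdown replicate 1, so the groups touched. CPT2 rose to 119.7% of control (log2 change 0.26, SE 0.0657, edgeR adjusted p 0.00567), while the exact permutation test, which uses this gene alone, gave p = 0.0571. The log2 ratio of CPT1A to CPT2 counts averaged 0.06 ± 0.0623 in knockdown libraries and 0.09 ± 0.160 in controls (SD, n = 4 each), a difference of -0.04 that was smaller than either SD (exact permutation p = 0.714, 0.714 after adjustment over the 4 pairs).

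In GRCh38 CPT1A (identifier 1374) spans 68754620 to 68844277 of chromosome 11 and CPT2 (identifier 1376) spans 53196824 to 53214197 of chromosome 1. Of the 121 75-base windows of the longest coding CPT2 transcript 26 also occur, on either strand, in transcripts of the overlapping genes AL606760.2 and C1orf123, whose annotated strand is opposite. No source used here says if counting used strand, so reads from the overlap cannot be told apart. For CPT1A 3 of 207 windows are shared.

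ACADVL, the membrane-bound very long-chain acyl-CoA dehydrogenase that starts oxidation of long chains, was the most abundant of the 10 transcripts and fell. It had 229.6, 265, 277 and 268 CPM in knockdown replicates 1 to 4, against 302, 315, 308 and 304 CPM in control replicates 1 to 4. Every knockdown library was below every control, and replicate 1 was the lowest. ACADVL fell to 84.6% of control (log2 change -0.24, SE 0.0465, edgeR adjusted p 6.7e-04; exact permutation p = 0.0286). The transcripts of ACADVL average 59.3% GC, and knockdown replicate 1 was 0.23 below the other 3 on the log2 scale. The part of GC content in this deviation of replicate 1 was not tested. Without that replicate the log2 change was -0.19 (SE 0.0268) and the call held (edgeR adjusted p 1.6e-07, within 1.6e-07 to 0.0226 over all alternatives). In GRCh38 ACADVL (identifier 37) spans 7217125 to 7225266 of chromosome 17, where 1.7% of its exon bases overlap exons of DLG4 on the other strand.

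**Figure D2:**
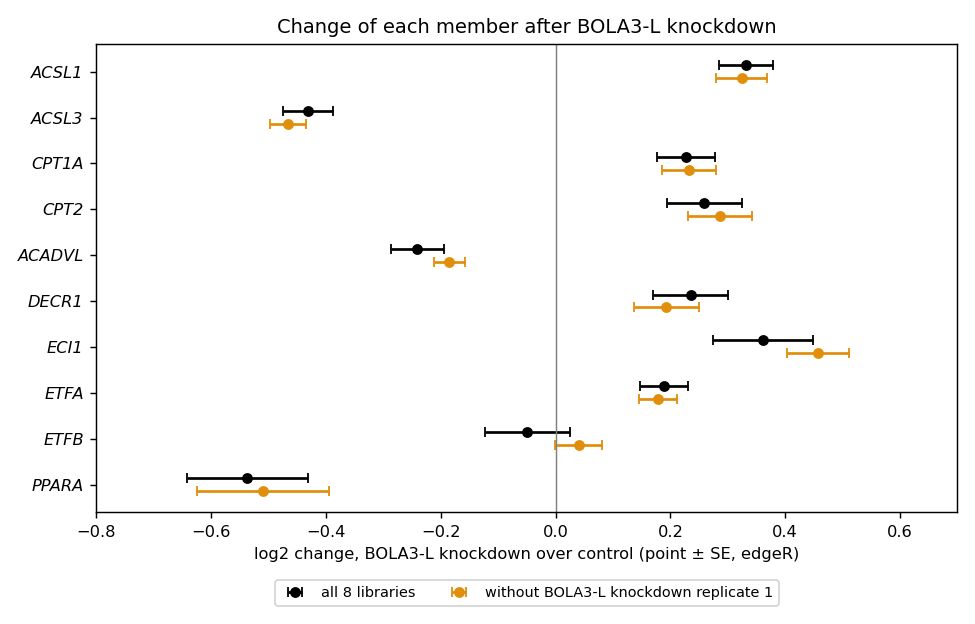
Log2 change of each of the 10 genes, BOLA3-L knockdown over control, as point ± SE from edgeR, with all 8 libraries (black) and without BOLA3-L knockdown replicate 1 (orange). The 6 rises and 3 falls lie on the same side of 0 in both, and ETFB lies at -0.05 with all libraries and at 0.04 without that replicate.

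The enzymes that handle double bonds both rose. DECR1, the mitochondrial dienoyl-CoA reductase needed for polyunsaturated chains, had 37.5, 34.3, 33.3 and 32.5 CPM in knockdown replicates 1 to 4, against 27.8, 26.6, 31.8 and 30.6 CPM in control replicates 1 to 4. The lowest knockdown library stood only slightly above the highest control. DECR1 rose to 118% of control (log2 change 0.24, SE 0.0655, edgeR adjusted p 0.0105; exact permutation p = 0.0286), and its adjusted p came closest to the threshold without control replicate 2 (0.0487, the highest of a range from 0.00413). ECI1, the isomerase that moves double bonds into the position that beta-oxidation can use, had 31.7, 42.0, 43.1 and 43.0 CPM in knockdown replicates 1 to 4, against 29.8, 29.0, 30.6 and 35.1 CPM in control replicates 1 to 4. Knockdown replicate 1 fell inside the control range, and the other 3 lay above all controls. ECI1 rose to 128% of control (log2 change 0.36, SE 0.0875, edgeR adjusted p 0.00501; exact permutation p = 0.0571).

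Knockdown replicate 1 stood high for DECR1 and low for ECI1 within its group. DECR1 transcripts average 42.3% GC and replicate 1 was 0.17 above the other knockdown libraries on the log2 scale. ECI1 transcripts average 64.6% GC and replicate 1 was 0.43 below. The part of GC content in these deviations of replicate 1 was not tested. The log2 ratio of DECR1 to ECI1 counts was 0.24 in that replicate and -0.29, -0.37 and -0.40 in knockdown replicates 2 to 4, against -0.10, -0.12, 0.05 and -0.20 in control replicates 1 to 4. With all libraries the ratio differed by -0.11 (exact permutation p = 0.486, 0.648 after adjustment over the 4 pairs). Without knockdown replicate 1 it differed by -0.26, with no overlap between the groups and exact permutation p = 0.0571, the smallest that 3 against 4 allow. Without that replicate the log2 change was 0.46 for ECI1 (SE 0.0537, edgeR adjusted p 1.1e-09, within 1.1e-09 to 0.0446 over all alternatives) and 0.19 for DECR1 (SE 0.0565, edgeR adjusted p 0.00468). In GRCh38 ECI1 (identifier 1632) spans 2239402 to 2251587 of chromosome 16.

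Of the electron transfer flavoprotein subunits ETFA rose and ETFB did not pass the test. ETFA, the alpha subunit, had 147, 143, 139.7 and 144 CPM in knockdown replicates 1 to 4, against 121, 124, 124 and 135 CPM in control replicates 1 to 4. All knockdown libraries were above all controls, and ETFA rose to 114% of control (log2 change 0.19, SE 0.0411, edgeR adjusted p 0.00186; exact permutation p = 0.0286). ETFB, the beta subunit, had 54.4, 73.4, 70 and 70.4 CPM in knockdown replicates 1 to 4, against 67.2, 65.8, 71.3 and 73.3 CPM in control replicates 1 to 4. Knockdown replicate 1 was below every other library, and the other 3 lay among the controls or, in replicate 2, just above them. The log2 change of ETFB was -0.05 with a 95% interval from -0.21 to 0.11 (edgeR adjusted p 0.654; exact permutation p = 0.771).

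Within libraries the log2 ratio of ETFA to ETFB counts was 1.44, 0.97, 1.00 and 1.03 in knockdown replicates 1 to 4, against 0.84, 0.91, 0.80 and 0.88 in control replicates 1 to 4. The ratio was higher in every knockdown library (difference 0.25, exact permutation p = 0.0286, 0.0571 after adjustment over the 4 pairs). Without knockdown replicate 1 the difference was 0.14, the groups still did not overlap, and the exact permutation p was 0.0571, the smallest that 3 against 4 allow. ETFA transcripts average 43.2% GC and ETFB transcripts 56.5%, and the part of GC content in the ratio was not tested. Without that replicate ETFB had a log2 change of 0.04 (SE 0.0402, edgeR adjusted p 0.451, within 0.39 to 0.872 over all alternatives). In GRCh38 ETFA (identifier 2108) spans 76215353 to 76311469 of chromosome 15 and ETFB (identifier 2109) spans 51345155 to 51366388 of chromosome 19. For ETFB 13 of 140 windows of 75 bases also occur in other genes' transcripts.

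**Figure D3:**
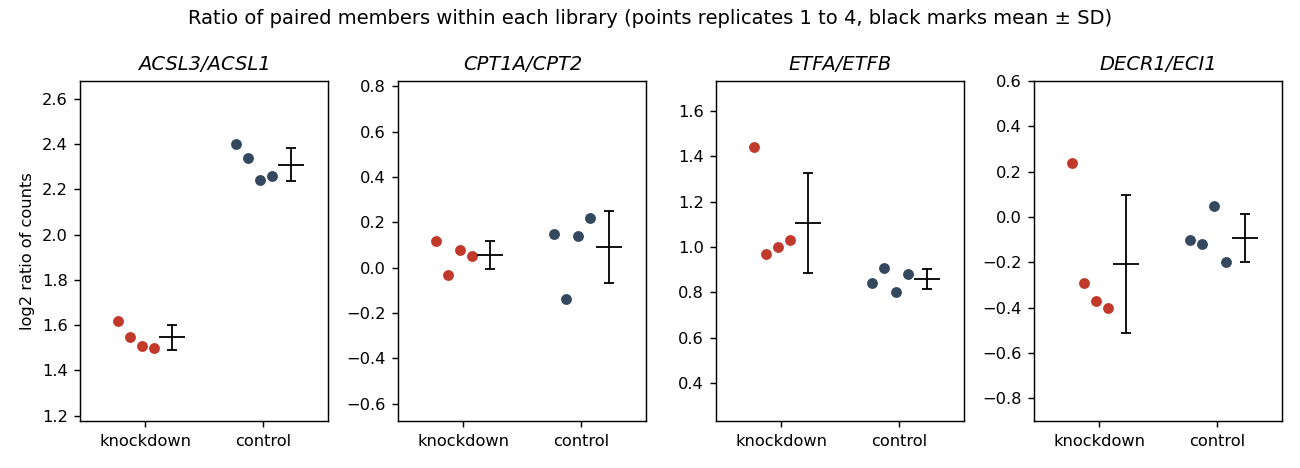
Log2 ratio of the counts of paired genes within each library, with points for replicates 1 to 4 of BOLA3-L knockdown (left) and control (right), black marks for mean ± SD of 4, and the same span on every axis. The ACSL3 to ACSL1 ratio separates the groups by -0.76, and knockdown replicate 1 stands above the other knockdown libraries in ETFA to ETFB (1.44) and DECR1 to ECI1 (0.24).

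PPARA was the least abundant of the 10 and had the largest fall. It had 5.07, 5.19, 5.08 and 6.17 CPM in knockdown replicates 1 to 4, against 7.30, 8.15, 7.80 and 7.99 CPM in control replicates 1 to 4, which rest on 160 to 210 counts in knockdown and 226 to 263 counts in control libraries. No library of one group reached the range of the other, and 3 of the 4 knockdown libraries were nearly equal. PPARA fell to 68.9% of control (log2 change -0.54, SE 0.105, edgeR adjusted p 7.7e-04; exact permutation p = 0.0286). On log2(FPKM + 1), a scale that shrinks changes of genes at low levels, limma with a minimum of 0.5 FPKM gave -0.31 (adjusted p 0.00116, within 2.4e-05 to 0.00465 over all alternatives). In GRCh38 PPARA (identifier 5465) spans 46150526 to 46243756 of chromosome 22, and none of the 397 windows of its longest coding transcript is shared with another gene.

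Levels of different genes were compared per length, as the authors' FPKM values. ACADVL was highest, with 107 ± 8.31 FPKM in knockdown and 125 ± 2.43 FPKM in control libraries (SD, n = 4 each). ETFB followed with 66.5 ± 8.32 FPKM in knockdown and 67.9 ± 3.38 FPKM in control libraries, and ETFA with 63.1 ± 1.45 FPKM in knockdown and 54.6 ± 2.69 FPKM in control libraries. In knockdown libraries the ranges of ETFB and ETFA overlapped, while in controls ETFB was above ETFA in every library.

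Below them stood ACSL3 (26.8 ± 1.45 FPKM in knockdown and 35.7 ± 1.57 FPKM in control libraries) and ECI1 (26.7 ± 3.62 FPKM in knockdown and 20.5 ± 1.79 FPKM in control libraries). The levels of this pair overlapped in knockdown libraries and did not overlap in controls. DECR1 (19.0 ± 1.27 FPKM in knockdown, 15.9 ± 1.30 FPKM in control) and CPT2 (17.1 ± 0.731 FPKM in knockdown, 14.1 ± 1.50 FPKM in control) overlapped in controls and lay close together in knockdown libraries. ACSL1 (10.9 ± 0.196 FPKM in knockdown, 8.57 ± 0.238 FPKM in control), CPT1A (7.94 ± 0.273 FPKM in knockdown, 6.69 ± 0.253 FPKM in control) and PPARA (1.22 ± 0.119 FPKM in knockdown, 1.75 ± 0.0843 FPKM in control) closed the order without overlap (SD, n = 4 each). CPT1A thus stood below CPT2, at 0.466 ± 0.0200 of its FPKM in knockdown and 0.480 ± 0.0507 in control libraries (SD, n = 4 each). These levels depend on the 1 length per gene that the authors used, which was 1015 bases for ETFB and 5869 bases for CPT1A.

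**Figure D4:**
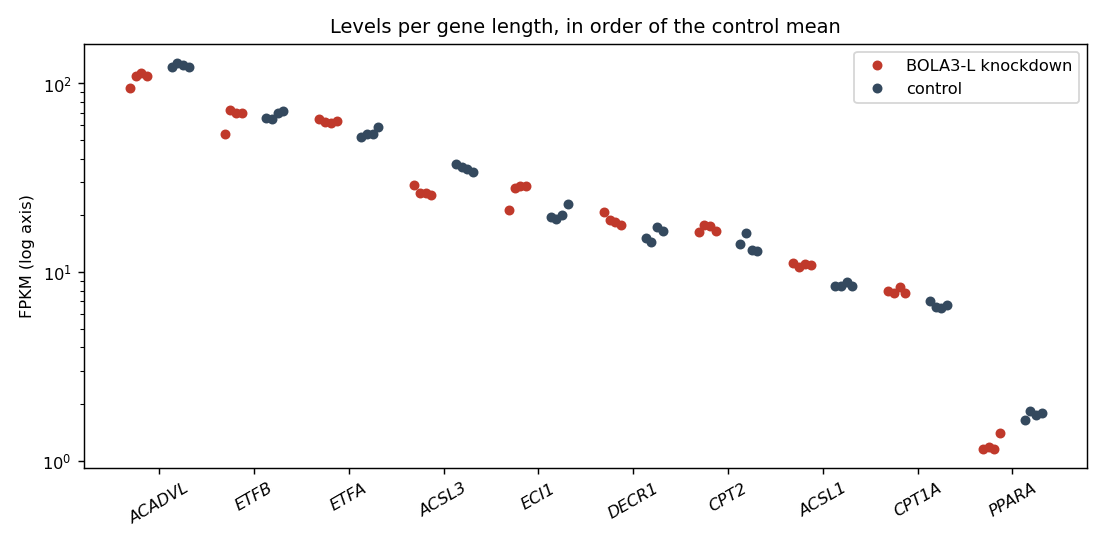
FPKM of the 10 genes on a log axis, ordered by the control mean, with the 4 BOLA3-L knockdown libraries (red) left of the 4 control libraries (dark) for each gene. Levels run from about 107 FPKM in knockdown and 125 FPKM in control libraries for ACADVL down to 1.22 FPKM in knockdown and 1.75 FPKM in control libraries for PPARA.

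Other genes of fatty acid oxidation were counted in 5 lists with 79 different genes, of which 51 were tested. Of these 14 rose and 11 fell, so 49.0% were called, against 30.7% of all tested genes (15.0% rose and 15.6% fell). The lists too were chosen with earlier results of these data known, so the contrast is no test. In the list of mitochondrial beta-oxidation enzymes 9 of 18 tested genes rose and 2 fell, with a median log2 change of 0.13. HADH, the short-chain hydroxyacyl-CoA dehydrogenase, had 29.4 ± 3.95 CPM in knockdown and 15.6 ± 1.03 CPM in control libraries (SD, n = 4 each; log2 change 0.91, edgeR adjusted p 2.8e-07). ACAA2, the mitochondrial thiolase, had 3.95 ± 0.253 CPM in knockdown and 1.67 ± 0.180 CPM in control libraries (SD, n = 4 each), and its rise of 1.24 on the log2 scale was the largest of the 51 genes (edgeR adjusted p 6.2e-06). The dehydrogenase family gene ACAD10 rose by 0.46 and the hydroxyacyl-CoA dehydrogenase HSD17B10 by 0.25 on the log2 scale, and ACADM, ACADSB, ECHS1, HADHB and ACAT1 rose by 0.14 to 0.23.

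The subunits of the trifunctional protein that works on the products of ACADVL had small changes. HADHA had a log2 change of 0.05 and did not pass the test (edgeR adjusted p 0.282). Every knockdown library lay above every control for HADHA in CPM (exact permutation p = 0.0286), and limma with no minimum called a rise (adjusted p 0.0482). HADHB rose by 0.14 (edgeR adjusted p 0.0303), which did not pass when knockdown replicate 2 was left out, or control replicate 2, 3 or 4 (edgeR adjusted p 0.0548 to 0.0979). ETFDH, which accepts the electrons of electron transfer flavoprotein, stood at 8.17 ± 1.40 CPM in knockdown and 8.66 ± 0.763 CPM in control libraries (SD, n = 4 each) and did not pass the test (edgeR adjusted p 0.608). ECI2, an isomerase related to ECI1, fell by 0.17 on the log2 scale (edgeR adjusted p 0.0138, and 0.0538 without BOLA3-L knockdown replicate 3). The thioesterase ACOT9 fell by 0.11 (edgeR adjusted p 0.0481), a call that held without BOLA3-L knockdown replicate 1 and was lost without any other single library (0.0589 to 0.136), and in 13 of the 17 alternatives in all. ACADSB lost its call without control replicate 2 or 3 (0.0879 and 0.0976), and both ACADSB and HADHB lost it in limma with no minimum. HADHA, HADHB, ETFDH and the 5 enzymes with smaller rises were named after their values were seen.

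In the list of carnitine transport and malonyl-CoA control 4 of 8 tested genes rose and 1 fell, with a median log2 change of 0.21. Over all tested genes 15.0% rose, 15.6% fell and the median was 0.00. MLYCD, which breaks down the CPT1 inhibitor malonyl-CoA, rose by 0.34 on the log2 scale (edgeR adjusted p 0.00566) and the plasma membrane carnitine transporter SLC22A5 by 0.32 (edgeR adjusted p 0.00183). The carnitine octanoyltransferase CROT rose by 0.21 (edgeR adjusted p 0.0153) and CPT1B, the muscle form of CPT1, by 0.25 (edgeR adjusted p 0.0275). SLC25A20, the translocase that carries acylcarnitine between CPT1A and CPT2, had 2.05 ± 0.493 CPM in knockdown and 3.06 ± 0.223 CPM in control libraries (SD, n = 4 each) and fell by 0.58 on the log2 scale (edgeR adjusted p 0.0186). CROT did not pass without control replicate 2 (0.0636). CPT1B did not pass when knockdown replicate 3 was left out, or control replicate 1 or 3 (0.0625 to 0.104). SLC25A20 did not pass when knockdown replicate 3 was left out (0.0656), or control replicate 1 (0.0603). Without BOLA3-L knockdown replicate 1 the acetyl-CoA carboxylase ACACA and the AMP-activated kinase subunit PRKAA1 also fell, making 3 falls.

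Among genes of fatty acid uptake and other acyl-CoA ligases 4 of 10 tested fell and 1 rose, with a median log2 change of -0.11. Of all tested genes 15.6% fell and 15.0% rose, with a median of 0.00. The fatty acid binding protein FABP5 fell by 0.33, the acyl-CoA binding protein DBI by 0.21 and the arachidonate-preferring ligase ACSL4 by 0.20 on the log2 scale (edgeR adjusted p 3.8e-04, 0.00127 and 0.00347, with ACSL4 at 0.0533 in limma with no minimum). The acetyl-CoA synthetase ACSS1 had 2.21 ± 0.259 CPM in knockdown and 2.98 ± 0.365 CPM in control libraries (SD, n = 4 each) and fell by 0.43 (edgeR adjusted p 0.0476), and of the 8 libraries left out in turn it was called when knockdown replicate 3 was dropped or control replicate 2, and not for the other 6 (0.0612 to 0.117). In all, ACSS1 was not called in 11 of the 17 alternatives. The fatty acid transport protein SLC27A4 rose by 0.14 (edgeR adjusted p 0.046) and was called in 8 of the 17 alternatives. Among the libraries left out in turn it was called without knockdown replicate 1 and not without any other (0.0744 to 0.155), nor was it called with no filter on low counts or with the replicate block.

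Of 13 tested PPAR receptors and partners 4 fell. The share called in this list, 30.8%, was close to the 30.7% of all tested genes, and its median log2 change was 0.01, against 0.00 over all tested genes. None rose in edgeR, where the count of rises was 0 also before adjustment of p, and DESeq2 called 0. The acetyltransferase EP300 fell by 0.42 on the log2 scale (edgeR adjusted p 3.2e-06), the coactivator PPARGC1B by 0.25 (0.00385), PPRC1 by 0.18 (0.0019) and NCOA2 by 0.15 (0.0225). NCOA2 did not pass when knockdown replicate 2 was left out, or control replicate 1, 2 or 3 (0.0548 to 0.0738), nor in any of the 3 limma fits, where its adjusted p reached 0.141. Without BOLA3-L knockdown replicate 1, RXRA and ESRRA rose. PPARD, the other PPAR that passed the filter, stood at 35.8 ± 2.91 CPM in knockdown and 35.6 ± 2.26 CPM in control libraries (SD, n = 4 each; edgeR adjusted p 0.925), while PPARG and PPARGC1A did not exceed 0.0951 CPM in any library. PPARD, PPARG and PPARGC1A were named after their values were seen.

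Of 14 PPAR target genes found in the table only 6 had enough counts to test, and PDK4, ANGPTL4, PLIN2, UCP2, FGF21, VNN1 and TXNIP did not exceed 0.634 CPM in any library. ACADM and CPT1B rose and SLC25A20 fell, all 3 of which stand in another list too. The shares over all tested genes were 15.0% for rises and 15.6% for falls. The target UCP3 had a log2 change of 0.51 at a mean of 0.889 CPM in knockdown and 0.624 CPM in control libraries and did not pass the test (edgeR adjusted p 0.14).

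**Figure D5:**
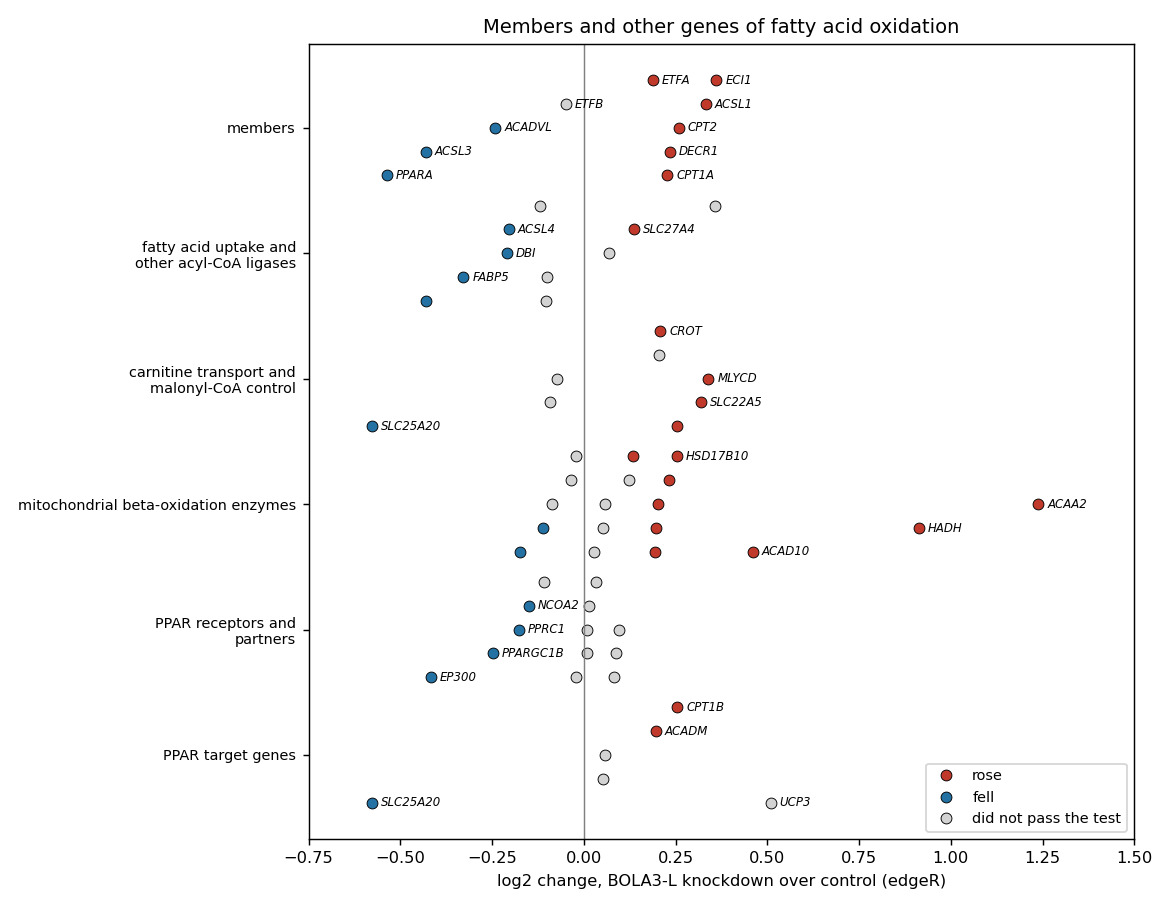
Log2 change, BOLA3-L knockdown over control, of the 10 genes (top row) and of every tested gene in 5 lists of other fatty acid oxidation genes. Red points rose, blue points fell and grey points did not pass the test, and vertical position within a row only separates points. The points farthest right are HADH at 0.91 and ACAA2 at 1.24 among beta-oxidation enzymes, and SLC25A20, at -0.58 in both of its lists, is farthest left.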

How the data were processed

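The labels state TRIzol extraction, polyA RNA, the VAHTS Universal V6 kit and 150 bp paired-end reads, and the design text states filtering with fastp. The submitters' processing notes name hg38. No aligner, counting tool, strand setting or annotation is given in the sources used here. The authors deposited a table named as counts, whose values are whole numbers per gene, and a table named as FPKM. Dividing count by FPKM and library total gave 1 length per gene to within 1e-06 in all 15852 genes, so FPKM adds no independent evidence.

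Counts were scaled by TMM, filtered with filterByExpr and tested by edgeR's quasi-likelihood F-test with robust dispersion shrinkage, adjusted over all 11841 tested genes by Benjamini-Hochberg at 0.05. The SE is the absolute log2 change over the square root of F. Paired genes were compared by exact permutation of log2 count ratios. GC content, overlaps and shared 75-base windows, taken every 25 bases, come from GENCODE v29, coordinates and promoters from RefSeq. The edgeR and DESeq2 fits were tested on simulated counts with planted changes. Software was DESeq2 1.42.0, edgeR 4.0.16 and limma 3.58.1 in R 4.3.3, with scipy 1.17.1 in Python 3.11.15.

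The 10 genes, the lists, the alternatives and the tests were chosen with earlier results of these data known. Named genes are BOLA3, the 10 members, the 4 tested genes of each list with the smallest p, and any count of 5 or fewer. The 5 lists of other genes cover uptake and ligases, carnitine transport, beta-oxidation, PPAR partners and PPAR targets. Alternatives were RLE and upper quartile scaling, no filter or 1 CPM in 4 libraries, DESeq2, a block for the replicate number, limma on log2 FPKM with a pseudocount of 1 or 0.1, and each library left out. The result of 1 listed gene is not reported here.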

Additional observations from a re-analysis of the deposited data

Results flagged for a closer look

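In a group of 4 libraries, a value was singled out when its gap to the nearest other took up nearly the whole range of the group. Chance does this in about 1 group in 20, and 5 of 30 groups examined were singled out, 3 of them by BOLA3-L knockdown replicate 1. The groups are not independent, since the ratios were built from the same genes. The ECI1 counts of that replicate enter both its ECI1 level and its DECR1 to ECI1 ratio. In that replicate ECI1 stood at 31.7 CPM, below 42.0 to 43.1 CPM in the other 3 knockdown libraries. The log2 ratio of ETFA to ETFB was 1.44 there, above 0.97 to 1.03 in the other 3, and that of DECR1 to ECI1 was 0.24, above -0.40 to -0.29. PPARA stood at 6.17 CPM in BOLA3-L knockdown replicate 4, above 5.07 to 5.19 CPM in the other 3. ACSL1 stood at 42.1 CPM in control replicate 3, above 39.6 to 39.9 CPM in the other controls.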

How the results depend on the processing

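Called genes numbered 3630, and 2841 to 5081 under the 17 alternatives. With the replicate number as a block 3392 were called, and no call among the 10 genes changed. The labels do not say that the numbers pair libraries, and same-numbered libraries deviated together with r of -0.04 to 0.09 over genes. The log2 changes of the 10 genes and BOLA3 kept their side of the threshold throughout, and only ETFB, never called, changed sign. The ratio of ACSL3 to ACSL1 differed by -0.790 to -0.733 and that of ETFA to ETFB by 0.139 to 0.295 with 1 library left out, where 3 against 4 cannot pass 0.05. Lists with few calls moved. In uptake and other ligases, rises were 2 under each limma fit and 0 with no filter on low counts or with the replicate block (0 to 1 with 1 library left out). Carnitine transport had 2 falls in DESeq2 and with 1 CPM in 4 libraries (0 to 3). Beta-oxidation had 1 fall under each limma fit, with no filter, with the block and with upper quartile scaling (0 to 2). PPAR partners had 0 to 2 rises, and PPAR targets 4 rises with limma and no minimum (1 to 2) and 0 to 1 falls, each with 1 library left out. The cause was not tested. PPARA rests on 160 to 263 counts per library, which limits its precision.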

Other observations

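The 10 genes together took up less of the library after knockdown although more of them rose than fell. Their summed level was 805, 852, 858 and 846 CPM in knockdown replicates 1 to 4, against 885, 891, 888 and 889 CPM in control replicates 1 to 4, and every knockdown library was below every control. ACADVL, the most abundant, made up 28.5%, 31.1%, 32.3% and 31.6% of that sum in knockdown replicates 1 to 4, against 34.1%, 35.3%, 34.7% and 34.2% in control replicates 1 to 4. ACSL3 fell as well, from a mean of 200.3 CPM in control to 149 CPM in knockdown libraries, against 307 to 259.8 CPM for ACADVL. Of the 10 genes 6 rose. Summed per gene length the groups overlapped, with 322, 355, 357 and 352 FPKM in knockdown replicates 1 to 4 and 344, 349, 352 and 357 FPKM in control replicates 1 to 4.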
